A study of Homo sapiens with 6 samples.

Results

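The glypicans and syndecans are the main families of heparan sulfate proteoglycans of the cell surface. The 10 genes of both families, GPC1 to GPC6 and SDC1 to SDC4, were taken by symbol from the table of read counts, and all 10 had a row among its 28265 genes. The RNA came from Huh7, a human hepatocellular carcinoma cell line in long use, sequenced 48 h after lentiviral transduction. In 3 libraries the vector expressed LHX2, a LIM-homeodomain transcription factor, and in 3 libraries the cells received a control vector and are otherwise labelled as parental cells. Neither the promoter of the vector nor the number of independent transductions is given in the sources used here. Nothing in the labels says that the replicates were separate cultures, so the spread behind each p-value is that of these libraries and may be technical.

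Each of these proteins is a core protein to which long heparan sulfate chains are attached, and through the chains it holds growth factors, morphogens, chemokines and lipoproteins at the cell surface. Glypicans are tied to the outer membrane by a glycosylphosphatidylinositol (GPI) anchor. Syndecans cross the membrane and end in a short cytoplasmic tail that binds PDZ-domain adaptors. In liver, GPC3 is an oncofetal glypican, abundant in fetal liver and in many hepatocellular carcinomas and low in adult hepatocytes, and SDC1 is the main hepatocyte receptor for triglyceride-rich lipoprotein remnants.

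Library totals ran from 30029313 to 39653681 counts. LHX2 itself had 1, 2 and 1 counts in control replicates 1 to 3 and 2535, 2427 and 3126 counts in LHX2 replicates 1 to 3. All 8 hepatocyte and hepatoma markers examined were detected, with a summed level of 47918 to 49276 CPM (counts scaled to the library size after TMM normalization) in the controls and 44665 to 49012 CPM with LHX2. AFP (means of 24742 CPM in the controls and 23084 CPM with LHX2) and ALB (12170 and 12311) made up most of it. Means of HNF4A (266 and 222), SERPINA1 (1731 and 1407), TTR (204 and 181) and APOB (6375 and 6050) were lower with LHX2. That of TF (2500 and 2913) was higher, and APOA1 (596 and 596) was level. Of 5 leukocyte markers CD3E had no counts and PTPRC had 0 to 3 counts per library, while the summed level was 469 to 499 CPM in the controls and 610.4 to 677 CPM with LHX2, nearly all of it LYZ. The 6 fibroblast and stellate markers summed to 17.7 to 19.8 CPM and to 46.6 to 52.7 CPM, with DCN at 0 or 1 counts in every library. The sum was mostly COL1A2, at a mean of 9.26 CPM in the controls and 36.8 CPM with LHX2, and LUM, at 9.01 and 12.6 CPM, while COL3A1 (0.234 and 0.0811 CPM) and PDGFRB (0.208 and 0.0405 CPM) were lower with LHX2. The 5 endothelial markers summed to 3.75 to 4.28 CPM and to 2.78 to 3.22 CPM, with CDH5, KDR and TEK at 0. The part of these shifts in the changes described here was not tested.

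Levels differed between the 10 genes by several orders of magnitude, and their order was the same in both groups under either transcript length used. Scaled by the length of the longest transcript, GPC3 stood far above the others, at 382 CPM per kb in the controls and 454 CPM per kb with LHX2 (means of 3 libraries), ranks 119 and 78 among the 25871 genes with a length. SDC4 (92.6 CPM per kb in the controls), SDC1 (60.9) and SDC2 (48.5) followed, then GPC6 (9.74), GPC2 (0.973), SDC3 (0.622) and GPC5 (0.309). GPC1 (0.0395) and GPC4 (0.0103) were at the edge of detection, and they were the only neighbours in this order whose ranges over libraries overlapped, in both groups. The order among SDC4, SDC1 and SDC2 rests on the length used. With the median transcript length of each gene it was SDC2 (281), SDC1 (184.7) and SDC4 (92.6), and SDC3 (3.67) stood above GPC2 (3.09). GPC3 was first under both lengths and made up 97.1% to 97.3% of the summed glypican level in the control libraries and 97.0% to 97.4% with LHX2 (95.6% to 96.0% in both groups with the median length).

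**Figure D1:**
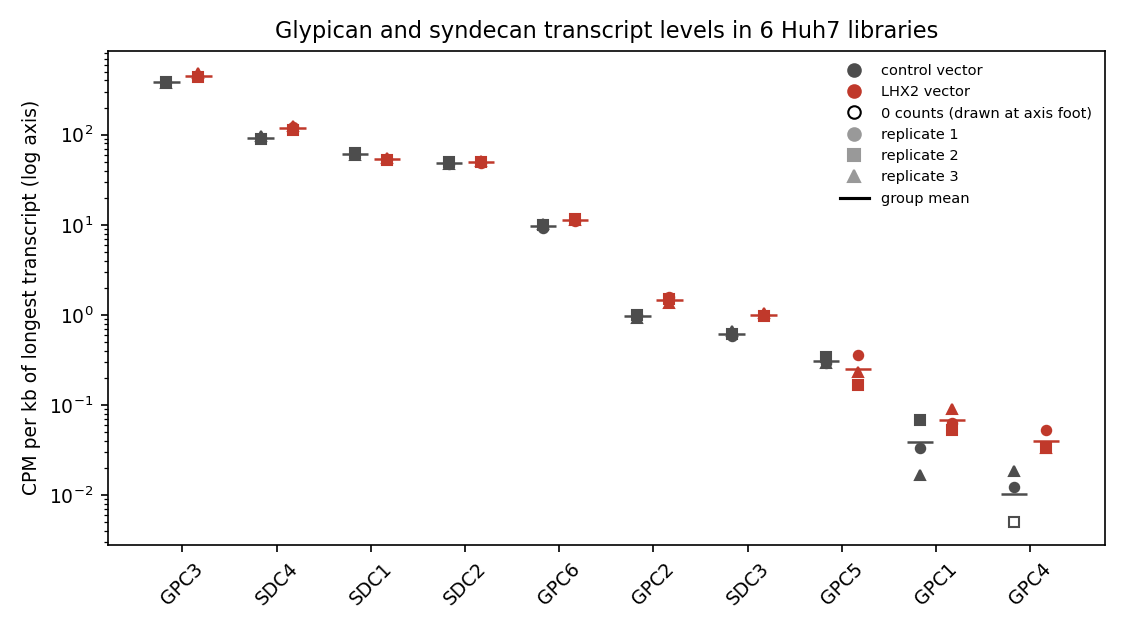
Transcript level of each glypican and syndecan in CPM per kb of its longest transcript (log axis), with 1 point per library, control in grey and LHX2 in red, and lines at the group means of 3 libraries. GPC3 lies highest, SDC4, SDC1, SDC2 and GPC6 follow, and GPC1 and GPC4 are at the detection limit, with control replicate 2 at 0 counts for GPC4.

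With LHX2, 5 of the 8 members that could be tested rose, 1 fell and 2 did not pass an adjusted p of 0.05 in the edgeR quasi-likelihood test. SDC3, GPC2, SDC4, GPC3 and GPC6 were the genes that rose and SDC1 was the gene that fell. Among all 14533 genes tested, 16.6% were called higher and 15.8% lower, 32.5% in all. The groups did not overlap in 6 of the 8 members, the same 6 that passed, where 44.9% of all tested genes showed no overlap. The rises were small, from 1.16-fold to 1.63-fold, as was the fall of 1.13-fold, and the median log2 fold change of the 8 members was 0.23, against 0.01 for all genes tested. These genes were chosen as families with earlier results of the same data known, so their count is a description. GPC1 and GPC4 had too few counts for the test. In RNA from whole cultures, a change in the share of expressing cells and a change per cell cannot be told apart.

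**Figure D2:**
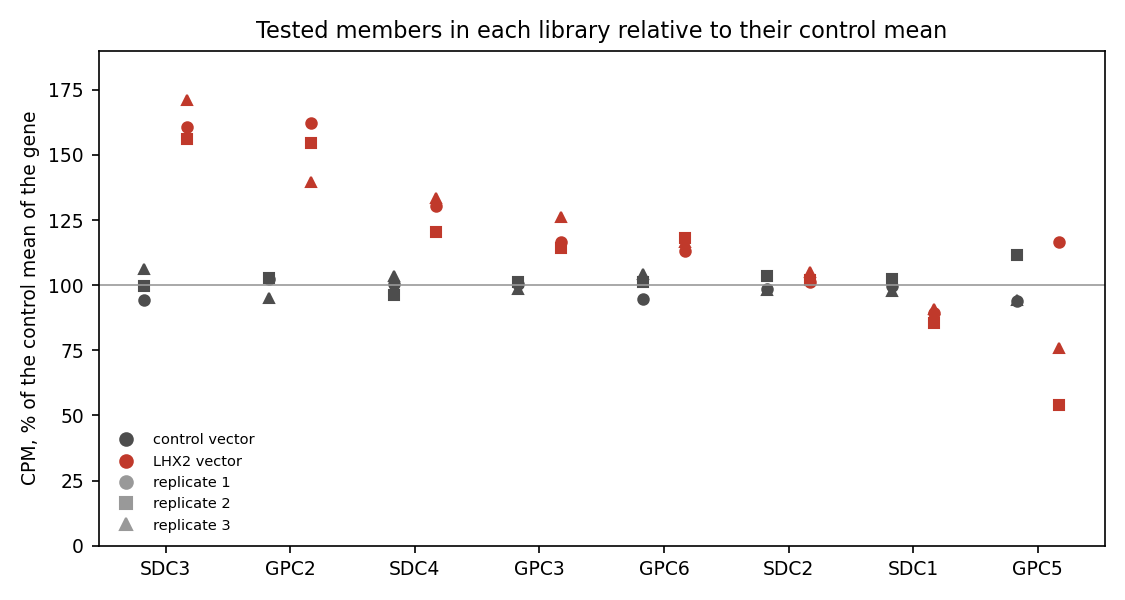
CPM of the 8 tested members in each library as a percentage of the gene's control mean, with 1 point per library, control in grey and LHX2 in red. For SDC3, GPC2, SDC4, GPC3 and GPC6 all LHX2 libraries lie above all control libraries, for SDC1 all lie below, and for SDC2 and GPC5 the groups overlap.

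GPC3 (chromosome X, 133535745 to 133985594 of GRCh38) encodes the glypican that binds Wnt and Hedgehog ligands and is used as a tissue marker of hepatocellular carcinoma. It was at 984, 990.1 and 965 CPM in control replicates 1 to 3 and at 1142, 1119.6 and 1237 CPM in LHX2 replicates 1 to 3. Every LHX2 library was above every control library, with replicate 3 the highest. GPC3 rose 1.19-fold, the mean going from 979.7 ± 12.9 CPM to 1166 ± 62.2 CPM (SD, n = 3; log2 fold change 0.25 ± 0.04, SE; edgeR adjusted p = 4.6e-04). With 102144 counts in the controls and 112958 with LHX2, it was the most deeply counted member. Its antisense gene GPC3-AS1 had no counts in any library.

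GPC6, a glypican best known for its role in growth plates and synapses, lies on chromosome 13 (93216529 to 94408020). Its levels were 59.7, 63.7 and 65.6 CPM in the controls and 71.3, 74.3 and 73.4 CPM with LHX2. The groups were separated, and GPC6 rose 1.16-fold (log2 fold change 0.21 ± 0.05, SE; edgeR adjusted p = 2.3e-03). The annotation places 476 exon bases of GPC6 opposite an antisense gene that has no row in the table. Without knowing the strand setting of the counting, reads of the pair cannot be told apart there. GPC6-AS1 and GPC6-AS2 had no counts.

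GPC2, described as a glypican of the developing nervous system, lies on chromosome 7 (100169606 to 100177381). It was low, at 2.52, 2.53 and 2.34 CPM in the controls and 4.00, 3.81 and 3.44 CPM with LHX2, from 257 counts in the controls and 360 with LHX2. No LHX2 library reached down to the controls. The rise of 1.52-fold was the largest among the glypicans (log2 fold change 0.60 ± 0.13, SE; edgeR adjusted p = 2.8e-03).

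GPC5 (chromosome 13, 91398621 to 92867237), the neighbour of GPC6, was at 0.861, 1.02 and 0.862 CPM in the controls. In LHX2 replicates 1 to 3 it was at 1.07, 0.492 and 0.694 CPM, so that replicate 1 was the highest of all libraries and replicate 2 the lowest. The groups overlapped, and the difference did not pass (log2 fold change -0.30 ± 0.28, SE; edgeR adjusted p = 0.46). The value moved with single libraries, to -0.62 without LHX2 replicate 1 and to -0.08 without LHX2 replicate 2, and did not pass in either case. The genes GPC5-AS1 and GPC5-AS2 had no counts.

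GPC1 and GPC4 were nearly silent in these cells. GPC1 (chromosome 2, 240435663 to 240468076), a glypican found in many tissues and tumours, had 4, 10 and 2 counts in the controls and 7, 6 and 12 with LHX2. The scaled sum with LHX2 was 1.72 times that of the controls (exact binomial 95% interval, 0.883 to 3.45). GPC4 (chromosome X, 133300103 to 133415489) lies next to GPC3 and had 2, 0 and 3 counts in the controls and 8, 5 and 6 with LHX2. Its groups did not overlap, and the scaled sum with LHX2 was 4.19 times that of the controls, with an interval of 1.51 to 14.3. These intervals cover counting error only. In the edgeR fit without a filter on low counts, GPC4 had an unadjusted p of 0.023 and an adjusted p of 0.085, and GPC1 an adjusted p of 0.42. The neighbours GPC3 and GPC4 thus lay at opposite ends of the order, at 382 and 0.0103 CPM per kb in the controls.

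Among the syndecans, SDC4 had the most counts. SDC4 (chromosome 20, 45325288 to 45348424) encodes the widely expressed syndecan of focal adhesions, whose tail binds protein kinase C alpha. It was at 243, 233 and 250.4 CPM in the controls and at 315, 292 and 323 CPM with LHX2. All LHX2 libraries lay above the controls, with replicate 2 the lowest of them. SDC4 rose 1.28-fold, from 242 ± 8.94 to 309.9 ± 16.3 CPM (SD, n = 3; log2 fold change 0.36 ± 0.05, SE; edgeR adjusted p = 2.7e-05), the smallest adjusted p of the 8 tested members. The processed copy SDC4P had no counts.

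SDC1 (chromosome 2, 20200797 to 20225475) was the member that fell. Its levels were 199.7, 205 and 196 CPM in the controls and 179, 171 and 182 CPM with LHX2. Every LHX2 library was below every control library. The fall was 1.13-fold (log2 fold change -0.18 ± 0.04, SE; edgeR adjusted p = 3.1e-03). SDC2 (chromosome 8, 96493813 to 96611790), a syndecan of mesenchymal cells and liver, was at 179, 189 and 179 CPM in the controls and at 184, 186 and 191 CPM with LHX2. The groups overlapped, and SDC2 did not pass (log2 fold change 0.04 ± 0.04, SE; edgeR adjusted p = 0.48; 0.02 to 0.06 with each library left out in turn).

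SDC3, known mainly from neurons, lies on chromosome 1 (30869466 to 30909735) and was the least abundant syndecan in both groups. It was at 3.75, 3.96 and 4.22 CPM in the controls and at 6.39, 6.20 and 6.80 CPM with LHX2, from 414 and 626 counts. The groups were well separated. The rise of 1.63-fold was the largest of the 8 tested members (log2 fold change 0.70 ± 0.11, SE; edgeR adjusted p = 1.5e-04).

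The opposite changes of SDC4 and SDC1 shifted the balance between them. The ratio of SDC4 to SDC1 counts, which needs neither a scaling factor nor a length to be compared between libraries, was 1.22, 1.13 and 1.28 in the controls and 1.76, 1.71 and 1.77 with LHX2. It thus went from 1.21 ± 0.0724 to 1.75 ± 0.0357 (SD, n = 3), a log2 difference of 0.53, and the groups did not overlap. SDC4 against SDC2 went from 1.33 ± 0.0868 to 1.66 ± 0.0743 (SD, n = 3), also without overlap. The ratio of GPC3 to GPC6 was 15.6 ± 0.887 in the controls and 16.0 ± 0.900 with LHX2 (SD, n = 3), with overlapping groups. Two-sided exact permutation p-values of these 3 ratios, which were chosen after the levels were seen, were 0.1, 0.1 and 0.7 (0.15, 0.15 and 0.7 after Benjamini-Hochberg adjustment), and 0.1 is the smallest p that 3 against 3 libraries allow.

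**Figure D3:**
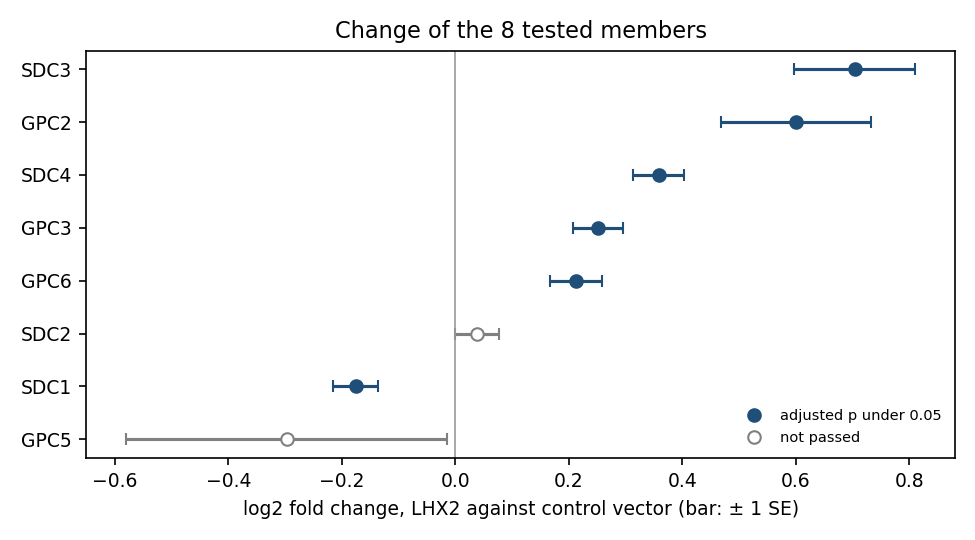
Log2 fold change of the 8 tested members, LHX2 against control vector, with bars of 1 SE from the edgeR fit over 6 libraries. Filled points passed an adjusted p of 0.05: SDC3 (0.70), GPC2 (0.60), SDC4 (0.36), GPC3 (0.25) and GPC6 (0.21) lie to the right of 0 and SDC1 (-0.18) to the left, while SDC2 and GPC5 did not pass.

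The sequence before the start sites of SDC4 and SDC1 is shown because the pair changed in opposite directions. RefSeq (GRCh38.p14) gave promoter windows for 8 of the 10 members, 9 windows in all, and the 250 bases before the start were searched on both strands for TAATTA (a core bound by LIM-homeodomain factors), TATAAA (the TATA box), GGGCGG (the GC box) and CTTTGA or CTTTGT (cores bound by TCF/LEF factors). GPC3 and SDC2 had no window and were not searched. Matches may overlap each other. Capitals mark every match in the windows, which lie on the minus strand of chromosome 20, 45348425 to 45348674, and of chromosome 2, 20225476 to 20225725, and are written 5′ to 3′ towards the start.
SDC4: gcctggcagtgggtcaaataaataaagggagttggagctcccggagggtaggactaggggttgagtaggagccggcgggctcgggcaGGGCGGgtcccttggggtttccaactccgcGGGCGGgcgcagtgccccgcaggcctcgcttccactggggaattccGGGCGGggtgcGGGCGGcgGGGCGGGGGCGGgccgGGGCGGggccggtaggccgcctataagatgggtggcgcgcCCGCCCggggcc
SDC1: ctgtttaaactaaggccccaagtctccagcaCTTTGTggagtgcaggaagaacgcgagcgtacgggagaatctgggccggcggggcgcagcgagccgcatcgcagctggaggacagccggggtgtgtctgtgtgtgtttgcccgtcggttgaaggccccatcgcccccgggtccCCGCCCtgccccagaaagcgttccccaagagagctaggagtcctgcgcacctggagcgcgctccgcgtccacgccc
SDC4 had 8 matches to the GC box and no match to the other motifs, in a window of 73.6% G and C with 26 CpG. SDC1 had 1 GC box and 1 TCF/LEF core that starts 219 bases before the start site, in a window of 66.4% G and C with 23 CpG. SDC1 has a second window in RefSeq (20225131 to 20225380), with 1 GC box, no TCF/LEF core, 75.2% G and C and 21 CpG. It is not printed because 119 of its bases lie in an exon of SDC1. Over all 35116 windows of this length the median was 58% G and C and 11 CpG. The GC box was in 8 of the 9 windows of the members, all but that of GPC6, and in 42.6% of all windows. The GPC6 window (93226557 to 93226806) lies within the gene span given above and is 37.6% G and C. In it 195 bases are exon bases of the antisense gene AL354811.1. The other member windows ran from 62.4% (GPC5) to 84% (GPC1) G and C. The TCF/LEF cores were in 2 of the 9 (1 of the 2 windows of SDC1, and GPC6) and in 22.8% of all windows, and the string TATAAA in 2 (GPC5 and GPC6) and in 10.7%. These TATAAA matches start 242 bases (GPC5) and 155 bases (GPC6) before the start site. TAATTA was in none of the 9 and in 4.35% of all windows. A match is a string of letters and not a shown binding site.

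The most similar profiles over the 6 libraries were sought for the member with the largest called change in each family, by the Euclidean distance of centred log2 CPM. Compared were 10149 genes that averaged 5 CPM or more and had an official symbol. Members of both families and genes with LOC symbols were left out. Nearest to GPC2 were IL18 (distance 0.07; log2 fold change 0.62), SULT1C4 (0.11; 0.63) and STN1 (0.11; 0.60). Nearest to SDC3 were MEP1A (0.10; 0.66), YPEL2 (0.11; 0.62) and MAF (0.12; 0.75). These profiles hold little more than the difference between the groups.

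The enzymes that build heparan sulfate chains mostly did not pass. Of 18 listed genes 16 were tested, of which 2 rose, 2 fell and 12 did not pass, with a median log2 fold change of 0.04 (all genes 0.01, with 16.6% higher and 15.8% lower). Both subunits of the chain polymerase rose. EXT1 rose 1.80-fold (edgeR adjusted p = 4.3e-09), with means of 36.7 ± 0.439 CPM in the controls and 66.0 ± 2.61 CPM with LHX2 (SD, n = 3), and its partner EXT2 1.16-fold, from 33.6 ± 0.182 to 39.1 ± 1.36 CPM. UGDH, which makes the UDP-glucuronic acid used for the chains, fell 1.22-fold, and PAPSS1, which makes the sulfate donor, fell 1.12-fold. PAPSS1 did not pass without control replicate 3 (log2 fold change -0.13, edgeR adjusted p = 0.052). Genes of the linkage region to the core protein (XYLT2, B4GALT7, B3GALT6, B3GAT3 and FAM20B) all lay between -0.12 and 0.11 on the log2 scale and did not pass.

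Of 20 listed genes that modify the chains 10 were tested, of which 2 rose, 3 fell and 5 did not pass (median log2 fold change 0.15), where 16.6% of all genes were called higher and 15.8% lower. The 3-O-sulfotransferase gene HS3ST5 fell 2.43-fold (edgeR adjusted p = 2.0e-04), from a low mean of 2.28 ± 0.433 CPM to 0.944 ± 0.0642 CPM (SD, n = 3), and HS3ST3B1, of the same class, fell 1.41-fold, from 34.8 ± 0.911 to 24.7 ± 1.15 CPM (edgeR adjusted p = 1.5e-05). HS3ST3A1, also of this class, did not pass (log2 fold change 0.20, edgeR adjusted p = 0.32). The 2-O-sulfotransferase gene HS2ST1 fell 1.13-fold. NDST1, the N-deacetylase and N-sulfotransferase that starts chain sulfation, rose 1.22-fold (log2 fold change 0.29, and 0.14 with a correction for GC content and transcript length), and the 6-O-sulfotransferase gene HS6ST1 rose 1.25-fold. SULF1, which removes 6-O-sulfates outside the cell, had 1, 0 and 0 counts in the controls and 1, 0 and 0 with LHX2. SULF2, of the same function, had 5 to 14 counts per library, and both were below the filter.

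The list called release enzymes held proteases and lipases that can release the core proteins from the surface. It also held the convertases FURIN, PCSK5, PCSK6 and PCSK7, so its counts are not of release alone. Of its 11 tested genes 4 rose, 1 fell and 6 did not pass, beside 16.6% higher and 15.8% lower over all genes. The median log2 fold change was 0.19, against 0.01 for all genes. The membrane-type matrix metalloproteinase genes MMP15 and MMP14, the second of which cleaves syndecan ectodomains, rose 1.41-fold and 1.25-fold. MMP16, also of the membrane type, did not pass (log2 fold change -0.07, edgeR adjusted p = 0.39). Its control mean of 73.7 CPM was above those of MMP14 (47.1 CPM) and MMP15 (15.3 CPM). FURIN, a convertase that cleaves GPC3, rose 1.14-fold, and the related PCSK6 fell 1.14-fold. FURIN did not pass once the dependence of each library on GC content and transcript length was corrected for (log2 fold change 0.08, edgeR adjusted p = 0.090). GPLD1, a phospholipase that cuts GPI anchors, rose 1.23-fold and lost its call when LHX2 replicate 2 (0.26) or control replicate 1 (0.28) or 2 (0.26) was left out. ADAM17 (-0.06) and ADAM10 (-0.04), major syndecan sheddases, and NOTUM (0.56 ± 0.33, SE), a lipase that acts on Wnt proteins and was first described as releasing glypicans, did not pass. MMP2, MMP7 and MMP9 had no counts in any library, which allows up to 0.0285 CPM over the controls and 0.0314 CPM over the LHX2 libraries (3 counts of each group's total, counting error only).

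Of 12 tested cytoplasmic and adaptor partners of syndecans, direct or indirect, 4 rose, 1 fell and 7 did not pass (median log2 fold change 0.07). Thus 5 of 12 were called, beside 32.5% of all genes. GIPC1, a PDZ protein that binds SDC4, rose 1.33-fold, SDCBP, which encodes syntenin-1, 1.16-fold, EZR, the membrane-to-actin linker ezrin, 1.15-fold and ACTN4, an alpha-actinin, 1.10-fold. PDCD6IP, the syntenin partner ALIX, fell 1.09-fold. ACTN4 lost its call when LHX2 replicate 1 (log2 fold change 0.11) or control replicate 2 (0.14) or 3 (0.13) was left out, and also with the GC and length correction (0.05). PDCD6IP lost its call when control replicate 1 (-0.12) or 2 (-0.13) was left out, and with library totals alone (-0.09). PRKCA and CASK, a kinase and a scaffold that bind syndecan tails, did not pass (-0.07 and 0.03).

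For the GPI anchor that glypicans carry, 18 of 19 listed genes had a row and were tested, of which 2 rose, 2 fell and 14 did not pass (median log2 fold change 0.03), so 4 of 18 were called, beside 32.5% of all genes. PIGT, a subunit of the transamidase that attaches the anchor, rose 1.25-fold (edgeR adjusted p = 8.9e-05). PIGM, a mannosyltransferase, rose 1.17-fold and did not pass without control replicate 2 (0.20) or LHX2 replicate 1 (0.18). DPM1, which makes the mannose donor, and PIGF fell 1.09-fold and 1.23-fold, both close to the threshold (edgeR adjusted p = 0.049 and 0.046). The call for PIGF was lost without any 1 of the libraries but LHX2 replicate 3 (log2 fold changes of -0.32 to -0.24), and that for DPM1 without control replicate 1, 2 or 3 or LHX2 replicate 1 (-0.13 to -0.08). Over all 15 alternatives PIGF kept its call in 5 and DPM1 in 4.

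Of 7 tested genes listed as proteoglycans outside both families, 5 rose and 2 did not pass, beside 16.6% of all genes called higher. Their median log2 fold change was 0.40, against 0.01 for all genes. The co-receptor genes NRP2 and NRP1, which can carry a glycosaminoglycan chain, both rose, NRP2 2.06-fold and NRP1 by 0.59 on the log2 scale (edgeR adjusted p = 1.2e-07), the means of NRP1 being 184 ± 7.08 CPM in the controls and 276 ± 12.1 CPM with LHX2 (SD, n = 3). Of the basement membrane proteoglycans COL18A1 rose 1.48-fold, AGRN 1.32-fold and HSPG2, which encodes perlecan, 1.18-fold. AGRN and HSPG2 overlapped between the groups, and AGRN did not pass in DESeq2 (0.39, adjusted p = 0.089). The log2 fold change of AGRN was 0.40, and it was 0.26 without LHX2 replicate 3 and 0.17 with the GC and length correction. That of COL18A1 was 0.57, and 0.36 with the same correction. HSPG2 was at an edgeR adjusted p of 0.049. It lost that call when LHX2 replicate 2 (0.13) or control replicate 2 (0.21) or 3 (0.19) was left out, with RLE factors (0.24), upper-quartile factors (0.24) or a filter of 1 CPM in 3 libraries (0.25), and in limma-voom (0.24), and lay at -0.069 with the GC and length correction. TGFBR3, also called betaglycan, did not pass (0.03 ± 0.04, SE), nor did CD44 (-0.21 ± 0.17, SE).

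**Figure D4:**
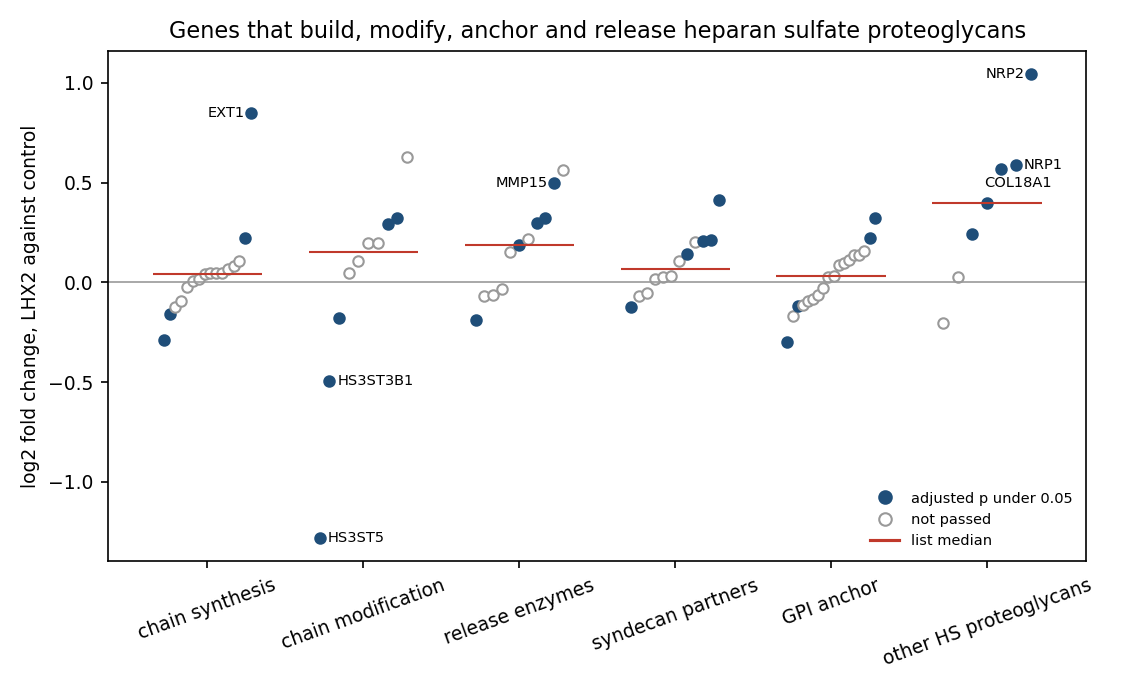
Log2 fold change, LHX2 against control vector, of the tested genes in 6 lists around heparan sulfate proteoglycans, with 1 point per gene, filled where the edgeR adjusted p was under 0.05, and a red line at each list's median. EXT1 (0.85) and NRP2 (1.04) lie highest and HS3ST5 (-1.28) lowest, and most genes of chain synthesis and of the GPI anchor lie near 0.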

How the data were processed

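The authors deposited whole-number read counts per gene, not normalized, for 6 libraries of Huh7 cells. The submitters' processing notes name featureCounts 2.0.0, TopHat2 2.1.1, Bowtie2 2.3.5.1, SAMtools 1.9, FastQC and bcl2fastq 2.20, and the builds GRCh38 and hg38. Per the labels' protocols, a stranded mRNA kit was used. The annotation and the strand setting of the counting were not given in the sources used here. A control column named in another form than the others was taken as control replicate 1 by its number.

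Of 28265 genes 14533 passed edgeR's filterByExpr (a minimum count of 10, a total of 15 and a proportion of 0.7), and libraries were scaled by TMM. Groups were compared with the edgeR 4.0.16 quasi-likelihood test on the group alone, with Benjamini-Hochberg adjustment over all genes tested at 0.05. SE values were derived from the F statistic. The 10 members, the 6 gene lists and the rule for named genes (all members, LHX2, and up to 5 called genes of each list with the largest change) were chosen with earlier results of these data known. Other list genes named for their values were chosen after those were seen. Transcript lengths came from GENCODE release 29 on GRCh38, and gene positions and promoters from RefSeq GRCh38.p14. Total counts of 30029313 to 39653681 limit precision for GPC1, GPC4 and GPC5.

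Alternatives tried were DESeq2 1.42.0, limma-voom (limma 3.58.1), upper-quartile or RLE factors, library totals alone, no filter on low counts, a minimum of 1 CPM in 3 libraries, the replicate number as a block, a correction for GC content and transcript length (loess per library, span 0.3), the median in place of the longest transcript, and leaving out each library. R 4.3.3, Python 3.11.15, scipy 1.17.1 and matplotlib 3.10.9 were used. The test was tried on simulated data for this comparison with 14370 genes. It called 22 of 50 genes set to a 1.2-fold change, 33 of 50 at 1.5-fold and 42 of 49 at 2-fold, and 15 of 14172 genes left unchanged. Far fewer genes were changed in the simulation than the 32.5% called in the real comparison, which makes its adjusted threshold stricter. These shares are thus not the power of the real test.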

Additional observations from a re-analysis of the deposited data

How the results depend on the processing

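The 5 members called higher and the 1 called lower kept their direction and their call under each alternative run: log2 fold changes lay between 0.57 and 0.75 for SDC3, 0.55 and 0.66 for GPC2, 0.33 and 0.40 for SDC4, 0.21 and 0.28 for GPC3, 0.17 and 0.24 for GPC6 and -0.24 and -0.15 for SDC1, with a largest adjusted p of 0.030 (SDC1). SDC2 and GPC5 did not pass under any alternative that tested them. Same-numbered libraries of the groups did not deviate together (correlations of -0.06, -0.07 and -0.19, and -0.07 to 0.13 for the other pairs). The deviations were centred within each small group, so these values cannot exclude a pairing by number. With the replicate block 1936 genes were higher and 1832 lower. Of the list genes named, PDCD6IP (-0.12, edgeR adjusted p = 0.064), PIGF (-0.31, 0.062), DPM1 (-0.12, 0.10) and HSPG2 (0.24, 0.11) did not pass with the block. The counts for lists moved as follows, and the cause was not tested. Of the other proteoglycans 4 in place of 5 were higher with RLE or upper-quartile factors, the filter of 1 CPM in 3 libraries, the replicate block, the GC and length correction, DESeq2 and limma-voom. Of the chain synthesis genes 3 were lower with the GC and length correction. Of the release enzymes 3 were higher and 3 lower with that correction. Of the syndecan partners 5 were higher with library totals alone and 3 with the GC and length correction, 0 were lower with library totals alone and 0 with the replicate block, and 3 with the GC and length correction. Of the GPI anchor genes 1 was lower with upper-quartile factors and 1 with the filter of 1 CPM in 3 libraries, and 0 with library totals alone, with the replicate block, with the GC and length correction, in DESeq2 and in limma-voom. HSPG2 reversed to -0.069 with the GC and length correction. With each library left out in turn, GPI anchor genes ranged from 1 to 3 higher and 0 to 2 lower, syndecan partners from 3 to 4 higher and 0 to 1 lower, release enzymes from 3 to 4 higher, modifying genes from 2 to 3 higher, other proteoglycans from 4 to 5 higher and chain synthesis genes from 1 to 2 lower, and 1850 to 2316 genes in all were higher and 1699 to 2251 lower. Of all calls 51.2% were higher, 59.8% with library totals alone and 44.1% with the GC and length correction. Depth limited GPC1, GPC4 and GPC5, with 41, 24 and 168 counts over all libraries.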
